A study of Rattus norvegicus with 12 samples.

Results

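Nrf2, the transcription factor that switches on antioxidant genes, its inhibitor Keap1 and a set of antioxidant enzymes were followed in rat kidney in 2 models of kidney injury. The set named 10 genes: Nfe2l2 (the gene for Nrf2), Keap1, Nqo1, Srxn1, Txnrd1, Sod1, Sod2, Sod3, Cat and Prdx1. Of these, 9 were measured in both expression tables, among 22132 entries in the table of the adenine model and 32623 in that of the unilateral ureteral obstruction (UUO) model. Srxn1 is not analysed here. They were taken by symbol, with no threshold on a measured value.

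RNA-seq was performed on kidney tissue of male wild-type Sprague-Dawley rats, bought at 8 weeks of age, with 3 rats in each of 4 groups. Control rats were given saline by gavage, and adenine rats were given 220 mg/kg of adenine a day by the same route, both for 3 weeks. In UUO rats the left ureter was tied, sham rats had the operation without the tie, and both were examined 2 weeks later. The labels give the tissue only as kidney and each library as a separate sample, and they do not say whether the obstructed or the opposite kidney of the UUO rats was sequenced. Expression was deposited as FPKM (fragments counted per transcript length and per library size), which is a level per length and can be compared between genes of a library. The control and adenine libraries stood in a table apart from the sham and UUO libraries, so levels were compared within a table only, and between the models only the changes were compared.

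As background, Nrf2 is held in the cytoplasm by Keap1, which presents it to a ubiquitin ligase for destruction. Electrophiles and oxidants modify cysteines of Keap1, Nrf2 then accumulates, pairs with small Maf proteins and binds antioxidant response elements in front of its target genes. The superoxide dismutases convert superoxide to hydrogen peroxide, which catalase removes in peroxisomes and peroxiredoxins remove with electrons passed on by thioredoxin. The kidney tubule, and the proximal tubule above all, is rich in mitochondria and peroxisomes.

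In both models Nfe2l2 and Nqo1 were higher, and Sod1 and Cat were lower, than in the respective controls, although the rise of Nfe2l2 with UUO and that of Nqo1 with adenine no longer passed the test after the scaling described below. Among the 9 members, 3 were higher in the adenine model (Nfe2l2, Nqo1 and Txnrd1) and 2 were lower (Sod1 and Cat), at an adjusted p under 0.05 from limma on log2(FPKM + 0.1) with Benjamini-Hochberg adjustment over all genes tested. Of all 15029 genes tested in that model, 39.6% were higher and 19.9% were lower by the same rule (59.4% in either direction). In the UUO model 3 members were higher (Nfe2l2, Keap1 and Nqo1) and 4 were lower (Sod1, Sod2, Cat and Prdx1), beside 56.1% and 14.4% of 15043 genes (70.5% in either direction). The rats of the diseased and the control group did not overlap for 5 of the 9 members with adenine, 3 above and 2 below, where 45.0% of genes lay above, 23.0% below and 68.0% either way. With UUO they did not overlap for 8 of the 9, 3 above and 5 below, where 60.0% of genes lay above, 15.7% below and 75.7% either way. Over the members the median log2 fold change was 0.33 with adenine and -0.25 with UUO, against 0.30 and 0.62 for all genes tested. Since the medians of all genes lay above 0, each call was also read after scaling by the median of ratios, which brought those medians to 0.07 and 0.08 and left 31.1% of genes higher and 26.8% lower with adenine, 30.2% and 26.3% with UUO. Under that scaling 1 member was higher (Nfe2l2) and 3 were lower (Keap1, Sod1 and Cat) with adenine, and 1 was higher (Nqo1) and 5 were lower (Txnrd1, Sod1, Sod2, Cat and Prdx1) in the UUO model. DEGs, defined by an adjusted p under 0.05 and a log2 fold change of at least 2 in either direction, took up 15.7% of the genes tested with adenine (5.03% lower) and 17.4% with UUO (4.21% lower). Sod1 and Cat were lower DEGs in the adenine model and Cat alone was a lower DEG after obstruction.

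**Figure D1:**
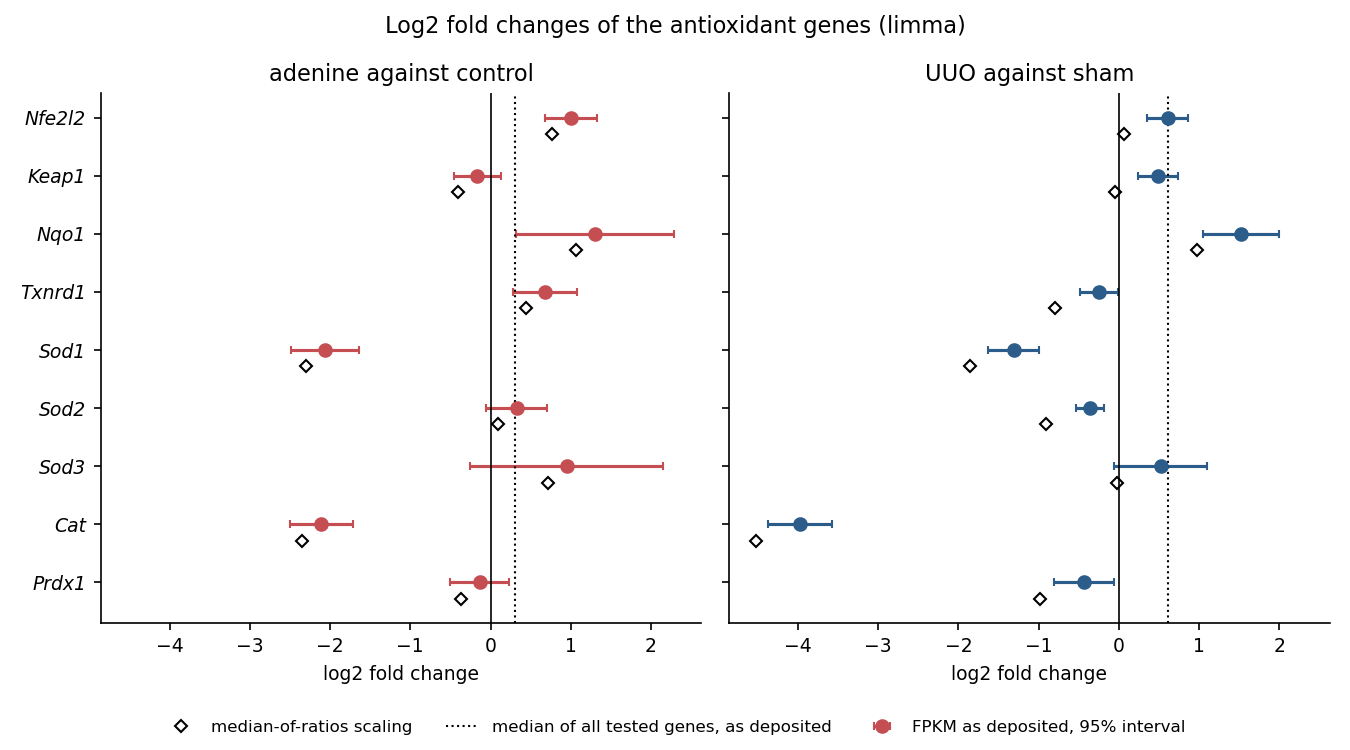
Log2 fold change of each member in the adenine model (left) and the UUO model (right), as filled circles with 95% intervals from limma, with the value after median-of-ratios scaling as an open diamond and the median of all tested genes as a dotted line. Sod1 and Cat lie left of 0 in both panels on either scale, and the fall of Cat is deepest in the UUO model, at -3.97.

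The antioxidant response element was looked for in the promoters of the members, because Nrf2 binding is what its known targets share. RefSeq windows of the GRCr8 assembly, from 250 bases before to 50 after the start of a gene, were searched on both strands for TGACNNNGC. The 9 letters stood in 4038 of 33469 windows (12.1%). Windows were given for 9 of the 10 members, 10 windows in all, and 4 of them held the letters: those of Nfe2l2, Sod2 and Prdx1 and the second of 2 for Txnrd1. In Nfe2l2 the match lay past the start of the gene, and its sequence is not shown. The windows of Cat, Srxn1, Keap1, Sod1 and Nqo1 held no match, which says only that these letters are absent from these bases. Below are the matches that lay upstream in the members, with 20 bases on either side, read 5′ to 3′ on the strand of the gene and with the 9 matched letters, or their reverse complement, in capitals.

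Prdx1, chr5:135383751-135383799, plus strand: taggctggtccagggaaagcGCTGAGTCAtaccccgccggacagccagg

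Txnrd1, chr7:22755954-22756002, minus strand: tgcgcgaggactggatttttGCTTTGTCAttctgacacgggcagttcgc

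Sod2, chr1:50050175-50050223, minus strand: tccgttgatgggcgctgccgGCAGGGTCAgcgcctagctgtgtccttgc

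These matches are descriptions of sequence and not binding sites measured here. As deposited, Txnrd1 was higher in the adenine model and not past the test in the UUO model, while Sod2 and Prdx1 were lower in the UUO model and not past the test in the adenine model. After median-of-ratios scaling all 3 were lower with UUO, and none passed with adenine.

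The first comparison concerned the regulator and its inhibitor. The FPKM of Nfe2l2 was 51.6, 40.0 and 41.0 in the control rats and 96.2, 79.5 and 90.1 in the adenine rats. All adenine rats lay above all control rats. The rise was 2.01-fold, at a log2 fold change of 1.01 (standard error 0.14, limma adjusted p = 0.000953), and 0.77 after median-of-ratios scaling (limma adjusted p = 0.00301). In the UUO table Nfe2l2 stood at 47.7, 54.4 and 58.6 FPKM in the sham rats and at 74.6, 83.0 and 87.1 in the UUO rats. Those groups did not overlap either. The log2 fold change was 0.61 (standard error 0.11, limma adjusted p = 0.0021), which is the size of the median shift of all genes in that model, and after median-of-ratios scaling it was 0.06 (limma adjusted p = 0.628).

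Keap1, the substrate adaptor that marks Nrf2 for degradation, had an FPKM of 14.9, 13.3 and 16.9 in control rats and of 13.97, 12.7 and 13.3 in adenine rats. The adenine rats lay within or just below the range of the controls. The difference did not pass the test at a log2 fold change of -0.17 (standard error 0.12, limma adjusted p = 0.275), it passed at -0.40 after median-of-ratios scaling (limma adjusted p = 0.0307), and it changed sign to 0.10 when the libraries were brought to the same summed FPKM. Sham rats had 14.2, 15.0 and 13.4 FPKM of Keap1 and UUO rats had 19.4, 22.2 and 18.5. Every UUO rat exceeded every sham rat, by 1.41-fold between the fitted means. The log2 fold change of 0.49 (standard error 0.10, limma adjusted p = 0.00496) was smaller than the median shift of all genes and turned to -0.05 after median-of-ratios scaling. Within each library, the ratio of Keap1 to Nfe2l2 was 2.26-fold lower in adenine than in control rats, with no overlap between the groups, while in the UUO model it differed by -0.12 on the log2 scale with overlapping groups (exact permutation test, two-sided, p = 0.1 and p = 0.5). Here and below, ratios within a library do not depend on scaling, 12 such tests were made, and 3 rats against 3 cannot give an exact p below 0.1; adjusted over the 12, the smallest p found was 0.15.

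**Figure D2:**
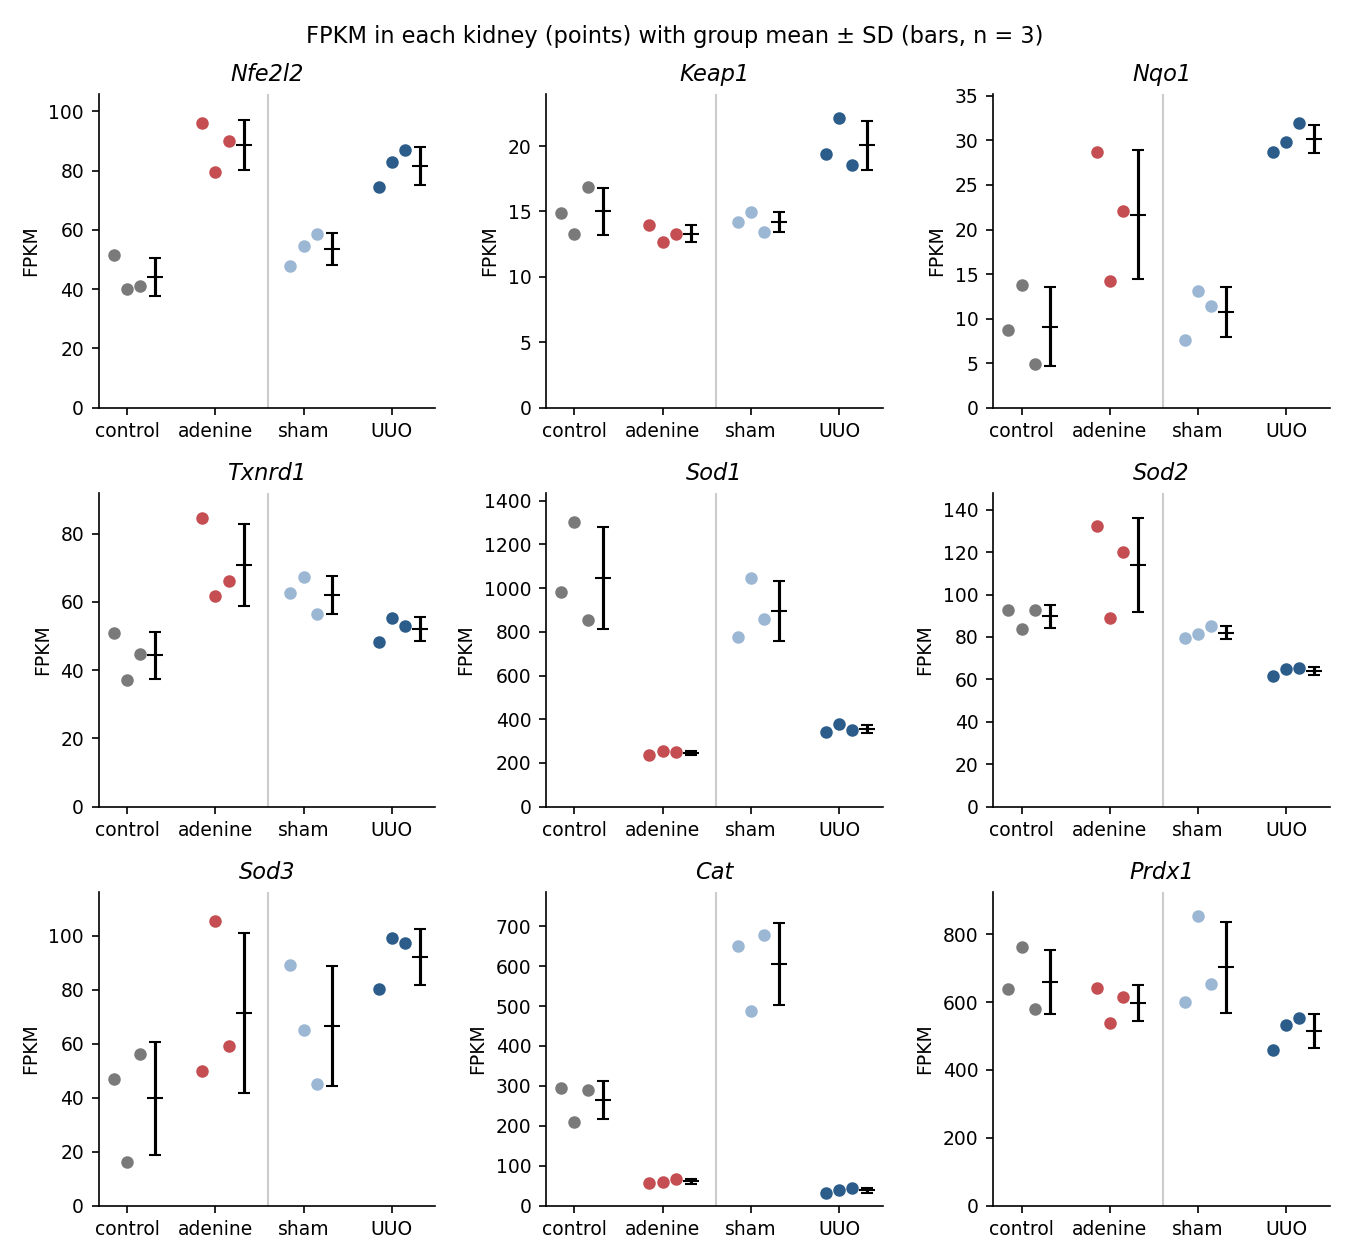
FPKM of each member in every rat, with control and adenine rats from their table on the left of each panel and sham and UUO rats from theirs on the right; black bars mark the group mean ± SD and axes start at 0. No diseased rat overlaps with its controls for Nfe2l2, Nqo1, Sod1 and Cat, while Txnrd1 and Sod2 lie higher in adenine than in control rats on average and lower in UUO than in sham rats.

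The partners and regulators of Nrf2 form a list of 14 further genes, 13 of them tested, which holds the small Maf proteins, the competing factors Bach1 and Bach2 and the parts of the ubiquitin ligases that remove Nrf2. In the adenine model 7 were higher, 2 were lower and 4 did not pass, with a median log2 fold change of 0.74. Of all genes there, 39.6% were higher and 19.9% lower. Bach1, a repressor at the elements that Nrf2 binds, rose from 1.58 ± 0.731 to 8.07 ± 0.387 FPKM (SD, n = 3 each), a log2 fold change of 2.36, and Bach2 rose by 1.79 from a level of 0.130 FPKM. Cul3, the cullin that works with Keap1, was lower by a log2 fold change of -0.80, and Syvn1, another ligase for Nrf2, by -0.53. In the UUO model 8 of the 13 were higher, none was lower and 5 did not pass, with a median of 0.61 beside 0.62 for all genes, and after median-of-ratios scaling 4 were higher and 2 were lower. As deposited, 56.1% of all genes were higher and 14.4% lower with UUO. Bach1 rose by 0.46 there (limma adjusted p = 0.0226), less than the median of all genes. It was at -0.08 after median-of-ratios scaling (limma adjusted p = 0.659). Bach2 rose by 2.06, whereas Cul3 at 0.05 and Syvn1 at 0.10 did not pass as deposited and were lower after median-of-ratios scaling, at -0.50 (limma adjusted p = 0.0289) and -0.44 (limma adjusted p = 0.00499).

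Next came the classical target genes. Nqo1, a quinone reductase that is widely read as a mark of Nrf2 activity, measured 8.69, 13.8 and 4.87 FPKM in control rats and 28.7, 14.2 and 22.1 FPKM in adenine rats. The lowest adenine rat, replicate 2, stood barely above the highest control rat, also numbered 2. Its log2 fold change was 1.31 (standard error 0.41, limma adjusted p = 0.0304), a call that was lost after median-of-ratios scaling (adjusted p = 0.0638) and when any of 4 rats was left out: control replicate 1 (0.0679), control replicate 3 (0.0689), adenine replicate 1 (0.0885) or adenine replicate 3 (0.0865), all limma adjusted p. In the UUO table Nqo1 measured 7.62, 13.1 and 11.4 FPKM in sham rats and 28.8, 29.8 and 31.9 FPKM in UUO rats. The UUO rats were close together and far above the sham rats. The rise of 1.52 on the log2 scale (standard error 0.20, limma adjusted p = 0.00054) passed also after median-of-ratios scaling, at 0.97 (limma adjusted p = 0.00533). The ratio of Nqo1 to Nfe2l2 was 1.89-fold higher in UUO than in sham rats without overlap, and in the adenine model it was higher by 0.31 on the log2 scale with overlap (exact permutation p = 0.1 and p = 0.6).

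Txnrd1, the cytosolic thioredoxin reductase, gave 51.0, 37.2 and 44.7 FPKM in control rats and 84.5, 61.9 and 66.2 FPKM in adenine rats. No adenine rat fell into the range of the controls. This was a log2 fold change of 0.67 (standard error 0.17, limma adjusted p = 0.0122), and 0.44 with an adjusted p of 0.0648 from limma after median-of-ratios scaling. Sham rats gave 62.6, 67.4 and 56.3 FPKM of Txnrd1 and UUO rats gave 48.3, 55.2 and 53.0 FPKM. Every UUO rat lay below every sham rat, though the highest UUO rat was near the lowest sham rat. At -0.25 (standard error 0.10) the fall did not pass (limma adjusted p = 0.0560), and it passed without sham replicate 3 at -0.32 (limma adjusted p = 0.0337) and after median-of-ratios scaling at -0.80 (limma adjusted p = 0.000893). The changes of Txnrd1 in the 2 models differed by -0.92 on the log2 scale (UUO minus adenine, SE 0.19, adjusted p = 0.00458 from a t test on the limma standard errors).

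A list of other known Nrf2 targets put Nqo1 and Txnrd1 beside 29 genes tested in each model. In the adenine model 7 were higher, 9 were lower and 13 did not pass, and the median log2 fold change was 0.18. With UUO 10 were higher, 13 were lower and 6 did not pass, and the median was -0.18. After median-of-ratios scaling 7 were higher and 10 lower with adenine, 8 higher and 15 lower with UUO, and at the same summed FPKM 12 were higher with adenine. The lower share exceeded the 19.9% and 14.4% of all genes in both models, and the higher share was below the 39.6% and 56.1% of all genes.

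The targets did not move in 1 direction. Slc7a11, the cystine transporter, rose by 6.35 in the adenine model from 0.0137 ± 0.0133 to 9.74 ± 3.83 FPKM (SD, n = 3 each), and this log2 value rests on a level near 0 in controls and so on the pseudocount. With UUO it rose by 2.51, from 0.0158 ± 0.0225 to 0.554 ± 0.0491 FPKM, with the same limit. Hmox1, heme oxygenase 1, rose from 3.04 ± 1.02 to 46.7 ± 14.4 FPKM with adenine and from 3.15 ± 1.58 to 32.3 ± 14.05 FPKM with UUO, by 3.91 and 3.39 on the log2 scale. Aldh3a1, an aldehyde dehydrogenase tested in the UUO model only, was higher there by 2.86, a value that also rests on a level near 0 in sham rats (0.0777 ± 0.0287 FPKM). The genes for both subunits of the enzyme that starts glutathione synthesis were lower: Gclc went from 1754 ± 43.6 to 31.2 ± 3.35 FPKM with adenine and from 2698 ± 234 to 39.0 ± 4.79 FPKM with UUO, at -5.81 and -6.11. Gclm, the modifier subunit, was lower by -3.74 and -3.05. Osgin1, an oxidative stress-induced growth inhibitor, was lower by -5.31 and -4.43.

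**Figure D3:**
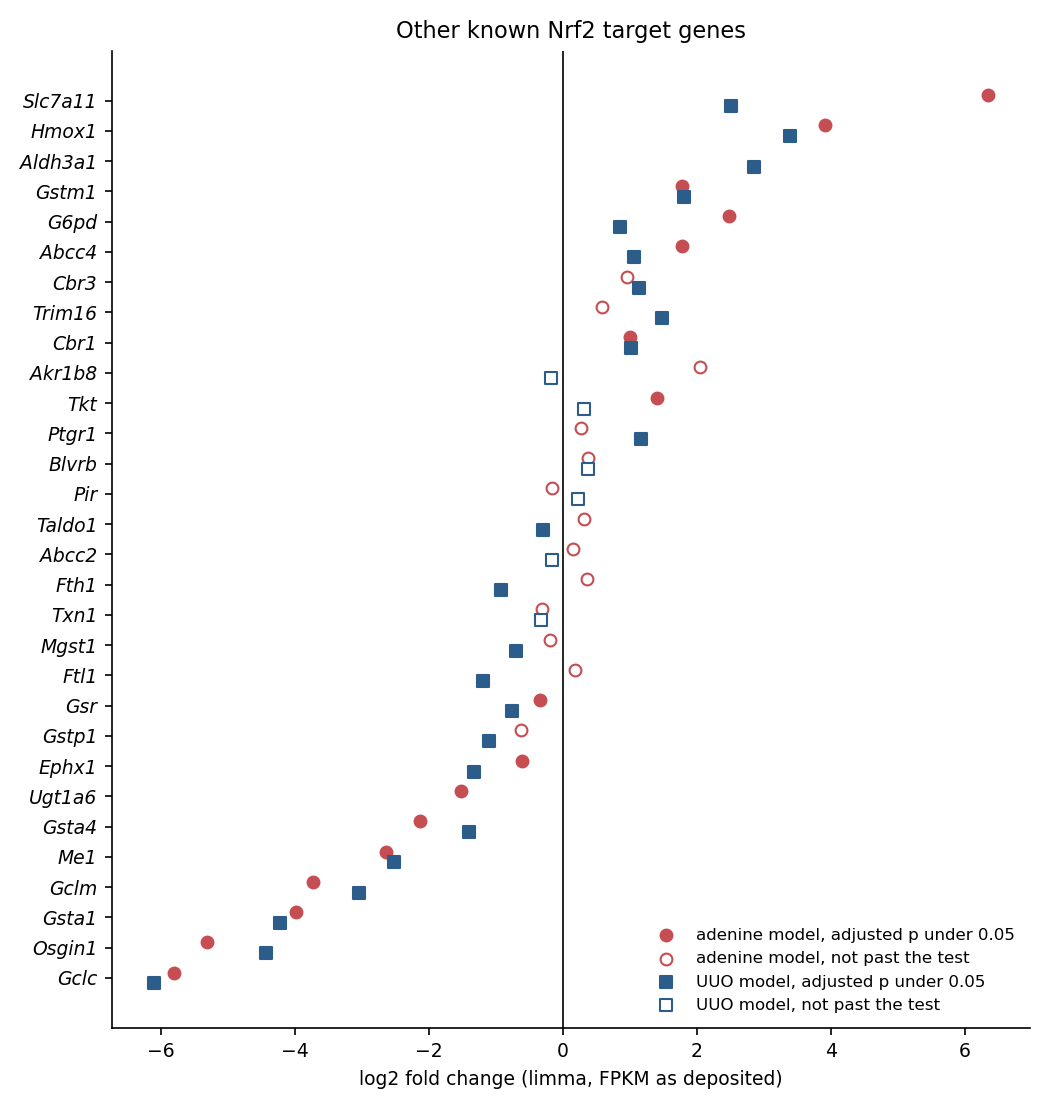
Log2 fold changes of the other known Nrf2 targets, 1 gene a row, in the adenine model (red circles) and the UUO model (blue squares); filled markers passed an adjusted p under 0.05 from limma and open markers did not. Slc7a11 lies farthest right with adenine (6.35) and Hmox1 with UUO (3.39), and Gclc lies farthest left with both.

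Windows of 300 bases for these other targets held TGACNNNGC in 8 of 26 cases (30.8%), next to 12.1% of all windows. The matches of 3 of these genes are printed with the same use of capitals, picked after their values were seen.

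Gclm, chr2:213031943-213031991, plus strand: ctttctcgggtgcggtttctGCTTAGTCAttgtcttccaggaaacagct

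Gstp1, chr1:210769738-210769786, minus strand: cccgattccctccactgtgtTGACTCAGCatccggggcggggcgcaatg

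Trim16, chr10:47985366-47985414, plus strand: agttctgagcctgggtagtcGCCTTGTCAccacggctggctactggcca

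Gclm fell in both models, as given above. Gstp1, a glutathione transferase, was lower in the UUO model by -1.10, from 949 ± 30.1 to 443 ± 48.7 FPKM (SD, n = 3 each), and did not pass in the adenine model at -0.62. Trim16, a stress-response ubiquitin ligase, was higher in the UUO model by 1.48, from 3.59 ± 0.577 to 10.2 ± 1.88 FPKM, and did not pass in the adenine model at 0.59.

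The superoxide dismutases parted from each other. Sod1, the copper and zinc enzyme of the cytosol, had an FPKM of 984, 1303 and 852 in control rats and of 237, 254 and 248 in adenine rats. The adenine rats were tightly grouped and far below the controls, at 4.18-fold less. On the log2 scale this was -2.06 (standard error 0.18, limma adjusted p = 0.000157), past the DEG threshold but near it: without control replicate 2, the highest, it was -1.89 and Sod1 was no longer a DEG. Sham rats had 778, 1045 and 857 FPKM of Sod1 and UUO rats had 342, 377 and 353 FPKM. Again no rat of either group reached the range of the other. The fall was 2.48-fold, at -1.31 on the log2 scale (standard error 0.13, limma adjusted p = 0.00017).

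Sod2, the manganese enzyme of mitochondria, had 92.7, 83.6 and 92.8 FPKM in control rats and 132, 89.2 and 120.1 FPKM in adenine rats. Adenine replicate 2 lay among the controls and the other two above them. The log2 fold change of 0.33 (standard error 0.16) did not pass (limma adjusted p = 0.122), and without adenine replicate 2 it was 0.49 and passed (limma adjusted p = 0.0151). In sham rats Sod2 had 79.4, 81.5 and 85.2 FPKM and in UUO rats 61.5, 65.1 and 65.3 FPKM. The UUO rats were all lower, by 1.28-fold. This change of -0.36 (standard error 0.07, limma adjusted p = 0.00401) was no longer past the test when libraries were brought to the same summed FPKM, at -0.13 (limma adjusted p = 0.136).

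Sod3, the secreted enzyme that binds the extracellular matrix, had the largest SD relative to its mean of the 9 members in control, adenine and sham rats. Its FPKM was 46.8, 16.3 and 56.0 in control rats and 49.7, 105 and 59.2 in adenine rats. The groups overlapped, with control replicate 2 low and adenine replicate 2 high, and the log2 fold change of 0.95 (standard error 0.50) did not pass (limma adjusted p = 0.145). It measured 89.1, 65.1 and 44.9 FPKM in sham rats and 80.1, 98.9 and 97.4 FPKM in UUO rats. Those groups overlapped through sham replicate 1, and the log2 fold change of 0.52 (standard error 0.24, limma adjusted p = 0.0923) became 0.76 without that rat (limma adjusted p = 0.0134) and -0.03 after median-of-ratios scaling.

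As shares of the summed FPKM of the 3 dismutases, Sod1 took 88.5% ± 3.96 in control and 57.1% ± 0.826 in adenine rats (SD, n = 3 each). Sod2 went from 7.83% ± 1.69 to 26.5% ± 5.99, and Sod3 from 3.64% ± 2.27 to 16.4% ± 6.21. The sum itself went from 1176 ± 206 to 432 ± 15.1 FPKM, so that the larger shares of Sod2 and Sod3 stood in a smaller total. In the UUO table Sod1 took 85.6% ± 2.96 in sham and 69.6% ± 1.12 in UUO rats, Sod2 went from 7.95% ± 0.973 to 12.5% ± 0.389, and Sod3 from 6.47% ± 2.59 to 17.9% ± 1.20. The sum there was 1042 ± 132 FPKM in sham and 513 ± 28.96 FPKM in UUO rats. For all of these shares the groups did not overlap, which gives the smallest exact permutation p of 0.1. The ratio of Sod2 to Sod1 was 5.24-fold higher in adenine than in control rats and 1.94-fold higher in UUO than in sham rats, and that of Sod3 to Sod1 was 8.10-fold and 3.57-fold higher. Without control replicate 2, the rat with the lowest Sod3, the 8.10-fold became 4.91-fold.

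**Figure D4:**
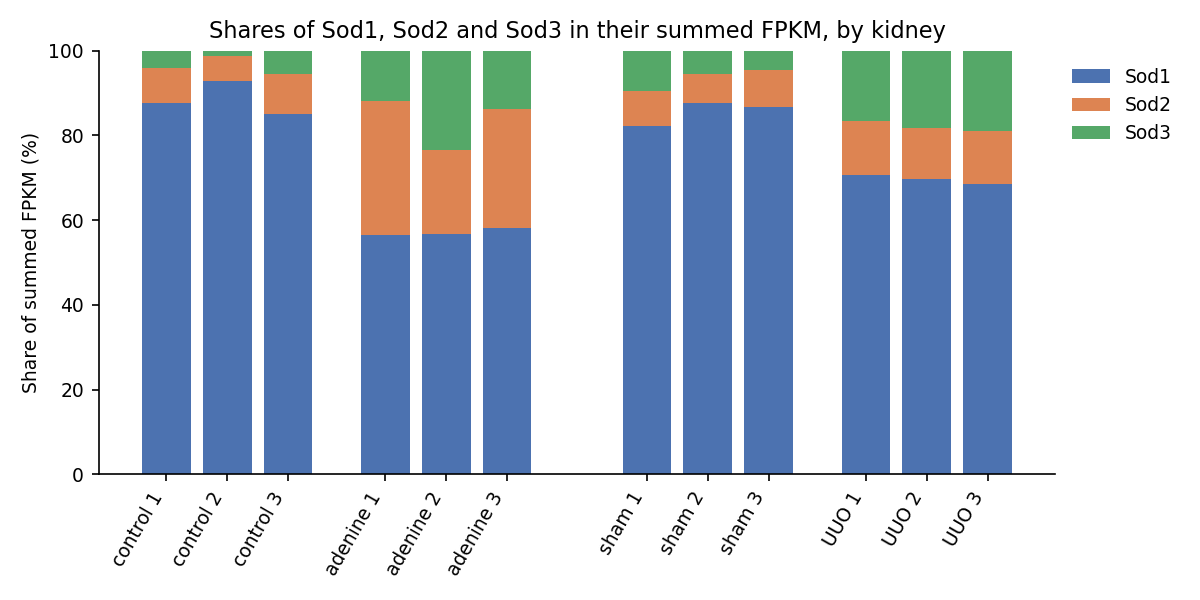
Share of Sod1, Sod2 and Sod3 in their summed FPKM (percent) for each of the 12 rats, as stacked bars from 0. The share of Sod1 is smaller in every adenine and UUO rat than in any control or sham rat of the same table.

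Of the enzymes that remove hydrogen peroxide, Cat changed more than Prdx1 in both models. Catalase had an FPKM of 294, 209 and 289 in control rats and of 55.7, 58.5 and 67.8 in adenine rats. The groups were far apart, with a fall of 4.31-fold. On the log2 scale it was -2.11 (standard error 0.16, limma adjusted p = 0.000111). Sham rats had 651, 486 and 678 FPKM and UUO rats had 32.4, 38.4 and 44.4 FPKM. The highest UUO rat lay far below the lowest sham rat, and the fall between the fitted means was 15.7-fold. The change of -3.97 on the log2 scale (standard error 0.17, limma adjusted p = 1.26e-05) was exceeded in depth by 0.951% of the genes tested. The fall in the UUO model was larger than that in the adenine model by a difference of -1.86 (standard error 0.23, adjusted p = 0.000257 from a t test on the limma standard errors). Within a library the ratio of Cat to Sod1 was 6.33-fold lower in UUO than in sham rats, whereas in the adenine model it differed by -0.05 on the log2 scale with overlap (exact permutation p = 0.1 and p = 0.9). That ratio was 0.299, 0.161 and 0.340 in control rats and 0.837, 0.465 and 0.790 in sham rats.

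Prdx1, the abundant cytosolic peroxiredoxin, had 639, 763 and 578 FPKM in control rats and 639.9, 539 and 616 FPKM in adenine rats. The groups overlapped, and the log2 fold change of -0.14 (standard error 0.16, limma adjusted p = 0.475) turned to 0.13 when the libraries were brought to the same summed FPKM. In the UUO table it had 599, 853 and 652 FPKM in sham rats and 459, 533 and 552 FPKM in UUO rats. All UUO rats were lower, by 1.35-fold, at -0.43 on the log2 scale (standard error 0.16, limma adjusted p = 0.0430). This call held only without sham replicate 1 among the fits that left out 1 rat: the limma adjusted p was 0.0844 without sham replicate 2, 0.0618 without sham replicate 3, 0.132 without UUO replicate 1, 0.0773 without UUO replicate 2 and 0.0660 without UUO replicate 3. It was also lost with no filter (limma adjusted p = 0.0679), without the trend (0.0597) and at the same summed FPKM (-0.21, adjusted p = 0.264). After median-of-ratios scaling it held at -0.98 (limma adjusted p = 0.00231). The ratio of Txnrd1 to Prdx1 was 1.76-fold higher in adenine than in control rats without overlap, and in the UUO model it was higher by 0.18 on the log2 scale with overlap (exact permutation p = 0.1 and p = 0.3).

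**Figure D5:**
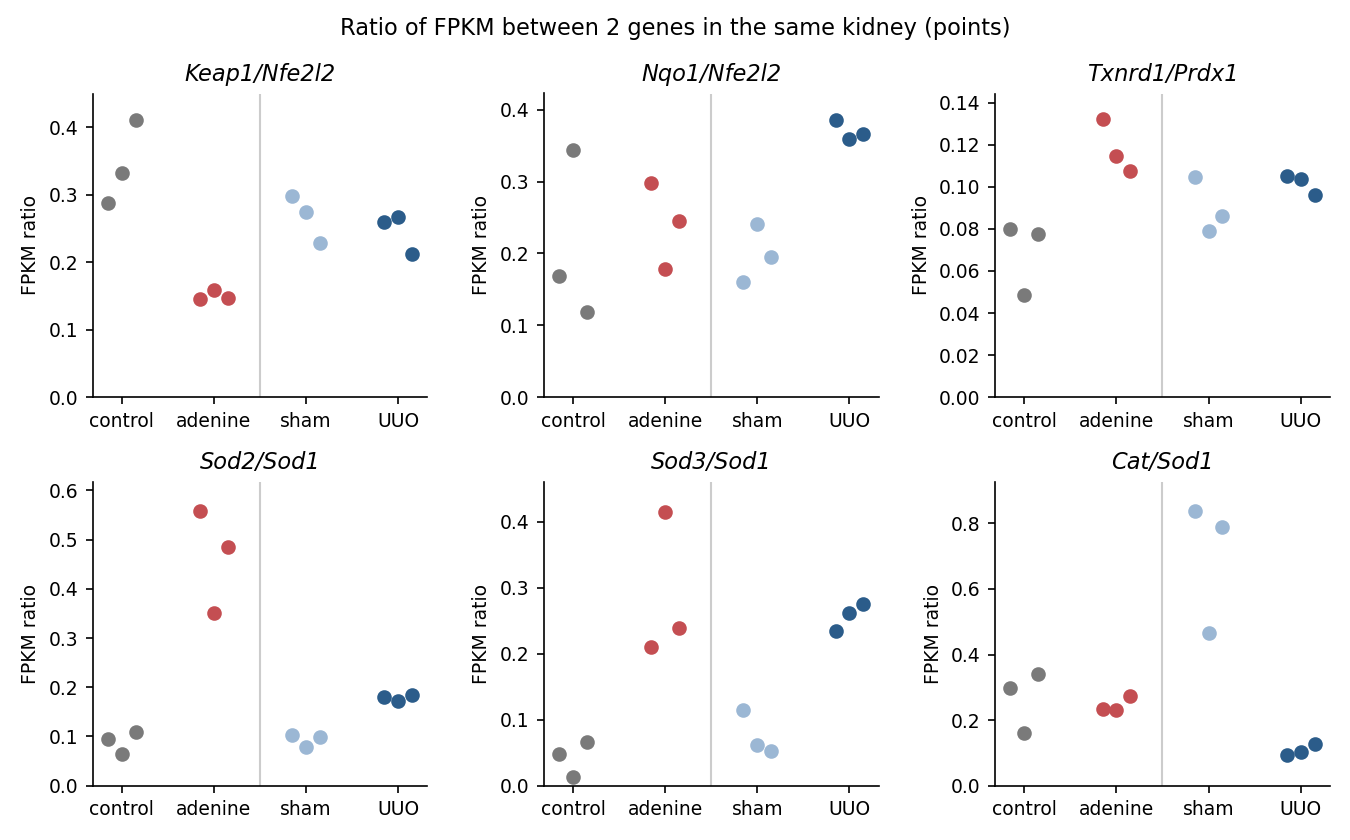
Ratio of the FPKM of 2 members within each rat's library (points, linear axes from 0), control and adenine on the left of each panel and sham and UUO on the right. The ratio of Cat to Sod1 separates UUO from sham rats and not adenine from control rats, and that of Keap1 to Nfe2l2 separates adenine from control rats and not UUO from sham rats.

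Of 17 other peroxiredoxins and thioredoxin system genes, 6 were higher, 5 were lower and 6 did not pass with adenine (median log2 fold change 0.04), while 6 were higher, 7 were lower and 4 did not pass in the UUO model (median -0.12). Of all genes tested, 39.6% were higher and 19.9% lower with adenine (median 0.30), and 56.1% and 14.4% with UUO (median 0.62). Leaving out 1 rat gave 4 to 5 higher with adenine and never the 6 of all rats. Median-of-ratios scaling left 4 higher and 8 lower with adenine, 2 higher and 10 lower with UUO. Glrx, a glutaredoxin, rose in both, from 5.03 ± 1.11 to 40.0 ± 7.43 FPKM with adenine and from 7.35 ± 1.45 to 70.8 ± 0.344 FPKM with UUO (SD, n = 3 each). Msra and Msrb1, which repair oxidised methionine, fell in both, Msra by -3.38 and -3.24 and Msrb1 by -2.63 and -2.26 on the log2 scale. Sesn3, a sestrin, was higher by 1.80 in the adenine model and 0.79 after UUO. Prdx4, the peroxiredoxin of the endoplasmic reticulum, was higher by 0.87 in the adenine model and 1.21 after UUO. After median-of-ratios scaling Sesn3 did not pass with UUO (limma adjusted p = 0.310), nor Prdx4 with adenine (limma adjusted p = 0.0689). Prdx5, which acts in mitochondria and peroxisomes and was named after its values were seen, rose from 278 ± 28.9 to 621 ± 164 FPKM in the adenine model and fell from 319 ± 40.7 to 141 ± 21.4 FPKM after UUO.

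The order of the members by level also shifted. Sod1 was the highest in control rats, apart from Prdx1 in the next place, and the 2 overlapped in sham rats. In adenine and in UUO rats Prdx1 was the highest, with no overlap with Sod1. Cat was in place 3 of 9 in control and sham rats and in place 7 in adenine and UUO rats, where it overlapped with Txnrd1 in the adenine rats and stood apart from it in the UUO rats. Nqo1 was the lowest in control and sham rats, and Keap1 was the lowest in adenine and UUO rats, in both apart from Nqo1. In control rats Txnrd1, Nfe2l2, Sod3 and Keap1 each overlapped with the next gene in the order.

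The changes were then compared between the models, by the difference of the log2 fold changes over 13486 gene symbols, of which 27.0% differed at an adjusted p under 0.05 (21.7% higher and 5.25% lower in the UUO model) and whose median difference was 0.28. Among the 9 members, 5 differed. By a t test on the limma standard errors, Txnrd1, Sod2 (-0.68, t test adjusted p = 0.0128) and Cat had the lower change in the UUO model. Keap1 (0.66, t test adjusted p = 0.00998) and Sod1 (0.75, t test adjusted p = 0.0233) had the higher. The calls for Keap1 and Sod1 were lost after median-of-ratios scaling, at 0.35 (t test adjusted p = 0.178) and 0.44 (t test adjusted p = 0.207), and that for Sod1 also without adenine replicate 1 (t test adjusted p = 0.0637) or adenine replicate 3 (t test adjusted p = 0.0557). For the members that did not pass, the 95% interval of the difference ran from -0.77 to -0.03 for Nfe2l2, from -0.77 to 1.20 for Nqo1, from -1.63 to 0.77 for Sod3 and from -0.78 to 0.18 for Prdx1. The difference of Nfe2l2 was -0.40 (t test adjusted p = 0.102) and passed at -0.52 without control replicate 1 (t test adjusted p = 0.0333) and at -0.71 after median-of-ratios scaling (t test adjusted p = 0.0124).

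Genes of the tubule and of other cell types moved in the same libraries. For the counts below, 39.6% of all genes were higher and 19.9% lower with adenine, and 56.1% and 14.4% with UUO. In bulk kidney fewer cells of a type and less RNA per cell cannot be told apart, and this touches each change given above. The peroxisomal list, which covers the compartment of catalase, had 15 of 19 genes lower and none higher with adenine, and 16 of 18 lower and 1 higher with UUO (0 higher after median-of-ratios scaling), with medians of -1.15 and -0.88. Hao2, an oxidase of hydroxy acids, fell by 4.74 on the log2 scale in the adenine model, and Dao, which oxidises D-amino acids, fell by 4.08 and 4.05. Amacr, a racemase of branched fatty acids, fell by 4.40 in the UUO model, while Pex14, a part of the import machinery, was at 0.19 in the adenine model and did not pass, and rose by 0.63 in the UUO model (0.09 after median-of-ratios scaling). Pex5, the import receptor, was listed at the lowest value of the UUO table in all 6 rats and was not tested there.

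Of 12 proximal tubule markers, 8 were lower and 1 was higher with adenine, 9 were lower and none higher with UUO; without control replicate 1, 2 were higher with adenine. Their summed FPKM ran from 3621 to 4589 in control and from 253 to 841 in adenine rats, and from 4507 to 5329 in sham and from 413 to 826 in UUO rats. Miox, an inositol oxygenase of this segment, was lower by -6.18 and -4.89, and the marker that rose in the adenine model was Slc5a12, a lactate carrier, by 3.998. No proximal tubule marker was at the lowest value of its table in all rats of a group. Catalase and Sod1 fell in the same libraries, and the part of this segment in their changes was not tested.

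Of the leukocyte markers, 12 of 13 were higher with adenine and 12 of 12 with UUO, with none lower. Their sum ran from 195 to 257 FPKM in control and from 7021 to 13512 in adenine rats, and from 221 to 345 in sham and from 1802 to 2662 in UUO rats. Most of each sum was Lyz2, with means of 175 FPKM in control, 9113 in adenine, 241 in sham and 1619 in UUO rats. The sums therefore mainly follow this gene and say little of the other leukocyte markers. Cd68, a macrophage lysosomal protein, was higher by 6.20 in the adenine model, and Cd163, a macrophage scavenger receptor, by 4.33 in the UUO model. Fibroblast and smooth muscle markers were higher for 8 of 11 with adenine and 11 of 12 with UUO, and their sum went from 123 to 168 FPKM in control against 719 to 899 in adenine rats, and from 121 to 186 in sham against 1682 to 3093 in UUO rats. The defining markers of none of these lists were at the lowest value of the table in all rats of a group. The part of these cells in the changes of Nfe2l2, Nqo1, Txnrd1 and Sod3 was not tested.

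Urothelial and collecting duct markers were counted as well: none of 5 tested was higher and 1 lower in the adenine model (Aqp2, a water channel, at -0.98), and 8 of 10 were higher and 2 lower in the UUO model (Krt15 at 8.08, Krt14 at 7.56, Aqp2 at -3.36). Krt15 and Krt14 had means of 0.0700 and 0.0422 FPKM in sham rats, so their log2 values rest on the pseudocount. Red blood cells are rich in catalase and peroxiredoxins. Of their markers 4 of 5 were lower with adenine and 1 of 3 with UUO, and the sum ran from 1119 to 2057 FPKM in control and from 213 to 855 in adenine rats, and from 344 to 690 in sham and from 304 to 2090 in UUO rats. These sums rest on unlike sets, 5 genes with adenine and 3 with UUO, where 1 repeated symbol was left out. The lower marker with UUO was Slc4a1 at -2.85, while Hbb at 0.64 and Alas2 at 0.76 did not pass. The markers thus did not move together with UUO, and their count does not measure red blood cells. Whether Slc4a1 is particular to red blood cells in kidney was not tested. The count of lower markers with adenine was 2 without control replicate 2, adenine replicate 2 or adenine replicate 3. The part of red blood cells in the changes of Cat and Prdx1 was not tested.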

How the data were processed

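Kidney RNA of 12 rats was sequenced, 3 in each of 4 groups that were taken from the sample titles. The authors deposited FPKM values, a table for each model. The submitters' processing notes name cutadapt 1.9, HISAT2 2.0.4, StringTie 1.3.4d, DESeq2 and edgeR without roles. The genome build and annotation are not given in the sources used here. Read depth is unknown, as the tables hold no counts, so no counting error can be given, and low levels are the least certain. FPKM summed to between 468389 and 630244 per library, less in adenine than in control and less in UUO than in sham rats. All per-sample columns were used.

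Within each table, genes with an FPKM of at least 0.5 in at least 3 samples were tested on log2(FPKM + 0.1) with limma 3.58.1 (R 4.3.3, trended eBayes) and Benjamini-Hochberg adjustment. Fold changes are on that scale and understate changes of low genes. A DEG needed both an adjusted p under 0.05 and a log2 fold change of 2 or more in size. The difference between models was the UUO minus the adenine log2 fold change, with limma standard errors of both fits, over symbols tested in both tables. It was divided by the root of the summed squared standard errors and read as a t test on the summed degrees of freedom, with Benjamini-Hochberg adjustment. Ratios within a library were tested by exact permutation, two-sided (scipy 1.17.1). The script was tested on simulated data. P-values measure the spread between these samples.

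The members and the lists (Nrf2 partners, other Nrf2 targets, peroxiredoxins and thioredoxin system, copper supply and dismutase helpers, peroxisome, proximal tubule, leukocytes, fibroblasts and smooth muscle, urothelium and collecting duct, red blood cells) were chosen with earlier results of these data known. All members were described, and of each list the 2 genes with the highest and the 2 with the lowest log2 fold change were open to naming, with Gclm, Gstp1 and Trim16 named for a printed sequence and Prdx5 and Pex5 named after their values were seen, outside that rule. Leaving out each rat for the ratios was added after seeing the data. A listed gene absent from a table is not analysed here. Promoter windows were those of RefSeq, assembly GRCr8, matched by symbol. Alternatives were other pseudocounts, filters, scalings, a fit without the trend, a replicate block and leaving out each rat. Same-numbered rats came from different animals, so the numbers were not used to pair them. The correlations of their deviations ran from -0.12 to -0.05 in the adenine model. In the UUO model they ran from 0.05 to 0.11, small but all positive. Above the lowest value of a table, at most 1 entry was equal between any 2 libraries.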

Additional observations from a re-analysis of the deposited data

Results flagged for a closer look

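The changes of 5 members differed between the models by a test of the difference itself (UUO minus adenine, on the log2 scale, adjusted over 13486 symbols with limma standard errors). Cat had the largest difference of the members, -1.86, with a fall in both models from means of 264 FPKM in control and 605 FPKM in sham rats. Txnrd1 at -0.92 and Sod2 at -0.68 had a positive log2 fold change in the adenine model and a negative one in the UUO model, of which the rise of Txnrd1 and the fall of Sod2 passed on their own. Keap1 at 0.66 was higher in the UUO model and did not pass in the adenine model. Sod1 at 0.75 fell in both, less in the UUO model. The median difference of all symbols was 0.28, and 21.7% of them had a higher and 5.25% a lower change in the UUO model by the same rule. Under median-of-ratios scaling the differences of Keap1 (0.35) and Sod1 (0.44) no longer passed.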

How the results depend on the processing

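Scaling moved the members' counts most. After median-of-ratios scaling 1 member was higher in each model instead of 3. With libraries brought to the same summed FPKM, 2 members were lower in the UUO model instead of 4, and 0 lower DEGs remained in the adenine model instead of 2, against 1 after quantile normalization and 1 without control replicate 2. Scaling also set the split of all calls: 66.5% were higher with adenine and 79.6% with UUO as deposited, 53.8% and 53.5% after median-of-ratios scaling. The log2 fold change of Keap1 turned to 0.10 in the adenine model at the same summed FPKM, and in the UUO model to -0.053 after median-of-ratios scaling and -0.0078 after quantile normalization. Prdx1 turned to 0.13 in the adenine model at the same summed FPKM, and Sod3 to -0.026 in the UUO model after median-of-ratios scaling. The difference between models turned for Nqo1 to -0.096 after median-of-ratios scaling, -0.14 without control replicate 2, -0.059 without adenine replicate 2 and -0.011 without sham replicate 1, and for Sod3 to 0.12 without control replicate 2; leaving out each rat gave -0.14 to 0.60 for Nqo1 and -0.77 to 0.12 for Sod3. Leaving out each rat gave 2 to 4 higher and 2 lower members, with 1 to 2 lower DEGs, in the adenine model, and 3 to 4 higher and 3 to 4 lower members, with 1 lower DEG, in the UUO model. Pseudocounts of 0.01 and 1 and a minimum FPKM of 1 kept each member and list count within 1.5 times its value and each member's call. Of the ratios within a library, leaving out 1 rat moved the fold of Sod3 to Sod1 with adenine by over 1.5 times (4.91-fold without control replicate 2), an alternative chosen after seeing the data, and no other ratio. Some small log2 differences with adenine changed sign, though. Nqo1 to Nfe2l2 went from 0.31 to -0.03 without control replicate 3. Cat to Sod1 went from -0.05 to 0.07 without control replicate 1 and to 0.16 without control replicate 3. Of the values of list counts under an alternative, 581 stayed within 1.5 times and 19 did not. The cause of these shifts was not tested. Depth is unknown, so how far it limits Bach2 or Slc7a11, near 0 in controls, cannot be given.

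With the replicate block, 2 members were higher and 2 lower in the adenine model (Nqo1 lost its call, limma adjusted p = 0.0566) and 3 higher and 4 lower in the UUO model, while calls over all genes went from 8934 to 7915 and from 10606 to 10578. Each rat correlated best with its own number in the UUO model and not in the adenine model, a hint from the data and not the design.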

Other observations

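Genes that supply copper to Sod1 or help the dismutases were listed as 7 genes. In the adenine model 1 was higher, 2 were lower and 4 did not pass, with a median log2 fold change of -0.13. Of all genes, 39.6% were higher and 19.9% lower with adenine, and 56.1% and 14.4% with UUO. Ccs, the copper chaperone that loads Sod1, fell from 52.1 ± 8.18 to 31.1 ± 1.37 FPKM (SD, n = 3 each), and Atp7a, a copper exporter, rose from 1.33 ± 0.147 to 3.67 ± 0.362 FPKM. In the UUO model 1 was higher, 3 were lower and 3 did not pass, with a median of -0.29, against 5 lower and a median of -0.83 after median-of-ratios scaling and 2 higher at the same summed FPKM or in a fit without the trend. Slc31a1, the main copper importer, fell from 54.4 ± 3.45 to 25.2 ± 1.51 FPKM there and Atp7b from 1.89 ± 0.166 to 0.933 ± 0.0571 FPKM. Fbln5, the matrix protein that binds Sod3, went in opposite directions, from 33.7 ± 5.37 to 20.9 ± 0.912 FPKM in the adenine model and from 43.1 ± 7.84 to 144 ± 35.9 FPKM in the UUO model.

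The genes whose pattern was most like that of each member were sought by Pearson's r over the 12 rats, on log2 values centred within each table, among 13486 symbols. These points share libraries and the contrast between groups, so a gene that moves with the treatment scores high, and the values are descriptions. The nearest gene was Lig3 for Nfe2l2 (0.989), Gja4 for Keap1 (0.950), Enkur for Nqo1 (0.965), Gga2 for Txnrd1 (0.960) and Cox7a2l2 for Sod1 (0.995). For Sod2 it was Atp6v1e1 (0.892), and for Sod3 it was Tmem104 (0.977). The 3 nearest to Cat were Mt-co3 (0.985), Mt-atp8 (0.984) and Slc28a1 (0.984), 2 of them mitochondrial transcripts. Among the members themselves, Sod1 ran with Cat (0.835) and against Nfe2l2 (-0.942), Nqo1 ran with Nfe2l2 (0.849), and Txnrd1 ran with Sod2 (0.808). The nearest gene to Prdx1 was AABR07012795 (0.958), followed by Mrps23 (0.886) and Txn1, thioredoxin (0.881).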
